A study of Homo sapiens with 6 samples.

Results

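The genes described here write, erase and read acetyl groups on histones. The set was chosen by name and family, not by its values, though earlier results of these data were known. It holds 33 of the 60664 genes in the count table, namely 11 lysine or N-terminal acetyltransferases, 11 zinc-dependent histone deacetylases (HDACs), 7 NAD-dependent deacylases (sirtuins), 3 bromodomain proteins that bind acetylated histones, and the corepressor NCOR1. RNA was sequenced from SiHa PR cells, the parental cells of a lymph node metastatic derivative. SiHa is an established human cervical squamous carcinoma line. One group of 3 libraries came from SiHa PR cells labelled without a further treatment. The other 3 libraries came from SiHa PR cells with P4HA3 overexpression, driven by a lentiviral cDNA. P4HA3 is a prolyl 4-hydroxylase subunit of the collagen pathway. Whether the transduced cells were a pool or a clone is not given in the sources used here. Nor is it stated for these libraries whether the control cells carried the empty vector, as in other overexpression experiments of the study. If they did not, transduction and P4HA3 cannot be told apart. The labels do not state that the libraries of a group were separate cultures, so the p-values measure only the spread between these samples, which may be technical.

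Acetyltransferases transfer an acetyl group from acetyl-CoA to lysines of histone tails, which loosens the contact of histones with DNA and creates binding sites for bromodomains. HDACs and sirtuins remove the group, the first with a zinc ion and the second by consuming NAD. Most of these enzymes act inside large complexes, and their balance at promoters and enhancers is known to shape transcription in carcinoma cells.

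P4HA3, the overexpressed gene, had 86, 62 and 93 counts in control replicates 1, 2 and 3, and 45042, 44775 and 49097 counts in the overexpression replicates. Its log2 fold change was 9.15 (SE 0.10), and every library matched its label. Total counts ran from 21773488 to 24939948, so 1 CPM (reads per 1e6 counted, normalized by TMM) stood for 21.3 to 25.4 counts. The 10 epithelial marker genes summed to between 11501 and 13089 CPM in control libraries and between 10810 and 12307 CPM with overexpression. Nearly all of this came from KRT17, KRT7, KRT8 and KRT18. KRT5 was below 1 CPM in every library, and EPCAM, CLDN4 and KRT19 had control means of 5.77, 2.04 and 0.84 CPM. The labels also carry a growth protocol for smooth muscle, which the cell line name contradicts. Of 8 smooth muscle markers, MYH11, DES, CNN1 and LMOD1 were below 1 CPM in every library, and the summed level ran from 148 to 154 CPM in control and from 160 to 173 CPM with overexpression, nearly all of it from SMTN and SYNM. Within these lists, CDH1 (log2 fold change -0.77), CLDN4 (-0.93), KRT18 (-0.40) and KRT17 (-0.32) fell and SYNM rose (0.29). Their part in the results was not tested. In bulk samples, fewer cells of a type and less RNA per cell cannot be told apart.

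All 33 genes were found in the table, and 31 passed the filter on low counts. HDAC9 and HDAC10 did not pass it and were not tested. With overexpression, 3 genes rose (CREBBP, HAT1 and HDAC2), 3 fell (HDAC5, HDAC11 and SIRT6) and 25 were not called in either direction, by edgeR's quasi-likelihood test with an adjusted p under 0.05 (Benjamini-Hochberg over 15130 genes). Among all genes tested, 9.36% rose, 11.4% fell and 20.8% were called in either direction. The 6 called members are 19.4% of the 31 tested, near that background. The median log2 fold change of the 31 genes was -0.0074, beside 0.0056 over all genes tested.

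The level of each gene was compared between genes as CPM per kilobase of its canonical transcript. HDAC1 was the most abundant at 121 CPM per kilobase over the 6 libraries, followed by HDAC3 at 52.0, BRD2 at 47.4, HAT1 at 45.9, SIRT2 at 40.5 and BRD9 at 39.1. The type B acetyltransferase HAT1 was thus the highest of the writers on this scale. Among the nuclear writers, KAT2A had 25.7, EP300 15.1, CREBBP 9.69 and KAT2B 2.01 CPM per kilobase. SIRT5 at 1.12 and SIRT4 at 1.62, both mitochondrial, were the lowest of the tested genes. HDAC9 had 0.041 and HDAC10 0.045 CPM per kilobase.

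**Figure D1:**
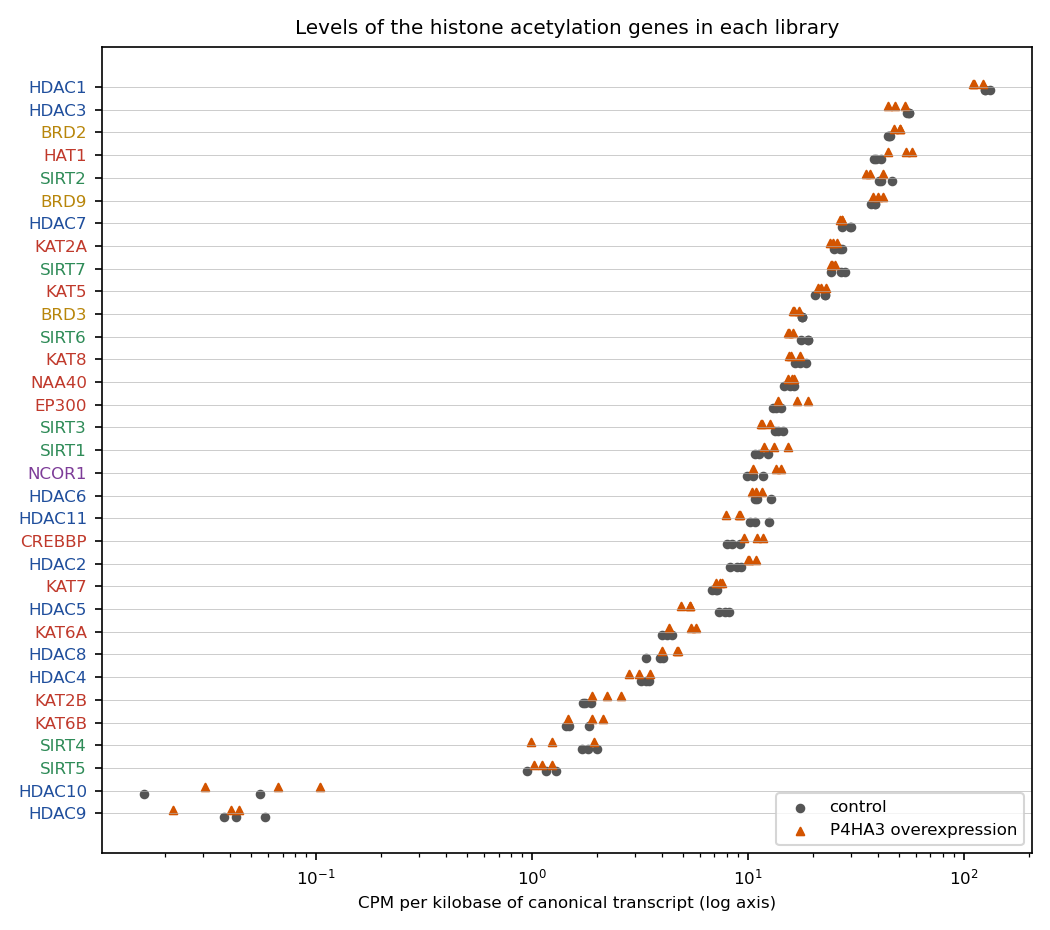
Level of each of the 33 genes in each library, as CPM per kilobase of canonical transcript on a log axis, with circles for the 3 control and triangles for the 3 overexpression libraries, and gene names in red for acetyltransferases, blue for HDACs, green for sirtuins, ochre for bromodomain readers and purple for NCOR1. HDAC1 is the highest at 121 and HDAC9 and HDAC10 lie below 0.11 in every library, and the control replicate with no HDAC10 count is not drawn.

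Among the acetyltransferases, CREBBP and HAT1 rose, none fell and 9 were not called. Of the 11 genes, 8 had a positive log2 fold change, and the median was 0.21. CREBBP (ENSG00000005339, GRCh38 chr16:3725054-3880713, minus strand) encodes CBP, a coactivator that acetylates histone H3 at enhancers. Its levels were 86.7, 91.4 and 99.0 CPM in the control replicates and 103.9, 127 and 119 CPM with overexpression. Every overexpression library lay above every control library. The log2 fold change was 0.34 (SE 0.08, adjusted p = 0.019 by edgeR), an increase of 26.4%. Over all genes tested, 19.7% had every overexpression library above every control library. Of the 31 members, 5 did so (KAT2B, CREBBP, HAT1, HDAC2 and BRD2).

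EP300 encodes p300, the close paralog of CBP. It had 115, 119 and 125 CPM in the control replicates and 121, 167 and 148 CPM with overexpression. The groups overlapped through overexpression replicate 1, and the log2 fold change of 0.28 (SE 0.10) had an adjusted p of 0.066 in edgeR. The ratio of CREBBP to EP300 counts was 0.753, 0.769 and 0.790 in control and 0.856, 0.758 and 0.806 with overexpression. This ratio also overlapped between the groups (two-sided exact permutation test, p = 0.3), so a difference between the paralogs was not shown.

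HAT1 (ENSG00000128708, GRCh38 chr2:171922448-171983686, plus strand) is the type B enzyme that acetylates newly made histone H4 before it is placed on DNA. It had 63.0, 64.2 and 67.9 CPM in control and 72.6, 93.9 and 88.1 CPM with overexpression. The groups did not overlap, and the spread was wider with overexpression (SD 11.01 CPM) than in control (SD 2.55 CPM). With a log2 fold change of 0.38 (SE 0.09, adjusted p = 0.017 by edgeR), this was the largest rise among the members.

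The sequences upstream of these 3 genes are shown because CREBBP and HAT1 are the writers that rose and EP300 is the paralog of the first. Each is the 250 bases before the RefSeq transcript start, from RefSeq on GRCh38.p14, written 5′ to 3′ on the strand of the gene. Capitals mark the letters GGGCGG (a GC box) or CCAAT on either strand.
CREBBP, chr16:3880714-3880963, minus strand: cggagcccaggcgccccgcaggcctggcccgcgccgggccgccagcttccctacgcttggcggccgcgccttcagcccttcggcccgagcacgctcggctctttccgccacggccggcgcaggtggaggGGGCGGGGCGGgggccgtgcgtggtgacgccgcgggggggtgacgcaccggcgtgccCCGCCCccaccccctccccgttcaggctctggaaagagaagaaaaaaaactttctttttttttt
EP300, chr22:41092342-41092591, plus strand: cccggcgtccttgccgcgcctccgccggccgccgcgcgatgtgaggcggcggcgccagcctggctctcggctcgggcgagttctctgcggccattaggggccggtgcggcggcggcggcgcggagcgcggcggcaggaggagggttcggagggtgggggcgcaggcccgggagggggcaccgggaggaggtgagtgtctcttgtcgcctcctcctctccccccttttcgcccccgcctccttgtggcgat
HAT1, chr2:171922211-171922460, plus strand: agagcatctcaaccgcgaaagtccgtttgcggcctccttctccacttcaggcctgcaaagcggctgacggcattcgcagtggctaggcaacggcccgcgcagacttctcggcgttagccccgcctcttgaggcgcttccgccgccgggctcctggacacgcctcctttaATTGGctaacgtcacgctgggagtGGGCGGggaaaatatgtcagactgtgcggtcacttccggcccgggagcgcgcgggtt

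The CREBBP window held 3 GC boxes, a pair of them overlapping on the same strand, the HAT1 window held 1 GC box and 1 CCAAT, and the EP300 window held neither. A RefSeq window was matched for 29 of the 33 genes (not for KAT6A, KAT8, HDAC5 and SIRT7). The GC box was found in 17 of these 29 windows and in 42.6% of the 35116 windows of all genes, and CCAAT in 5 of 29 and in 32.0% of all windows. The 29 are 1 window per gene, the nearest to the GENCODE gene start, whereas all windows of a gene count among the 35116. The window used for HDAC2 lies 40160 bases from that start and that for HDAC7 13229 bases. The member windows had a median GC content of 72.0%, against 58.0% over all windows, and a median of 27 CpG dinucleotides against 11. Single windows ran below the median of all windows, as for SIRT4 (39.6%), HDAC8 (48.0%) and KAT7 (56.4%). The palindromes CACGTG (E-box) and TGACGTCA (CRE) were found in 3 and 0 of the 29 windows, and in 6.34% and 1.65% of all windows. TATAAA was found in 1 of 29 (SIRT4) and in 10.7% of all windows.

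KAT2B, which encodes PCAF of the SAGA-like complexes, had 8.30, 7.74 and 7.60 CPM in control and 8.33, 11.4 and 9.82 CPM with overexpression. Its log2 fold change was 0.32 (SE 0.12, adjusted p = 0.085 by edgeR), so it was not called although the groups did not overlap. Its paralog KAT2A (GCN5) had 83.4, 85.3 and 78.3 CPM in control and 80.6, 75.0 and 77.3 CPM with overexpression, a log2 fold change of -0.08 (adjusted p = 0.32 by edgeR). KAT2A was far more abundant than KAT2B per kilobase in both groups.

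The 5 MYST acetyltransferases were not called. KAT6A (MOZ) had 36.8, 38.5 and 40.9 CPM in control and 39.4, 52.7 and 49.7 CPM with overexpression. As for EP300, overexpression replicate 1 fell among the controls and the other 2 libraries lay above them, with a log2 fold change of 0.29 (SE 0.10, adjusted p = 0.069 by edgeR). KAT6B (MORF), KAT7 (HBO1), KAT8 (MOF) and KAT5 (TIP60) had log2 fold changes of 0.21, 0.07, -0.11 and -0.0033. NAA40, which acetylates the N termini of histones H2A and H4, had a log2 fold change of 0.03. The 11 acetyltransferases thus ranged from -0.11 for KAT8 to 0.38 for HAT1 in log2 fold change.

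**Figure D2:**
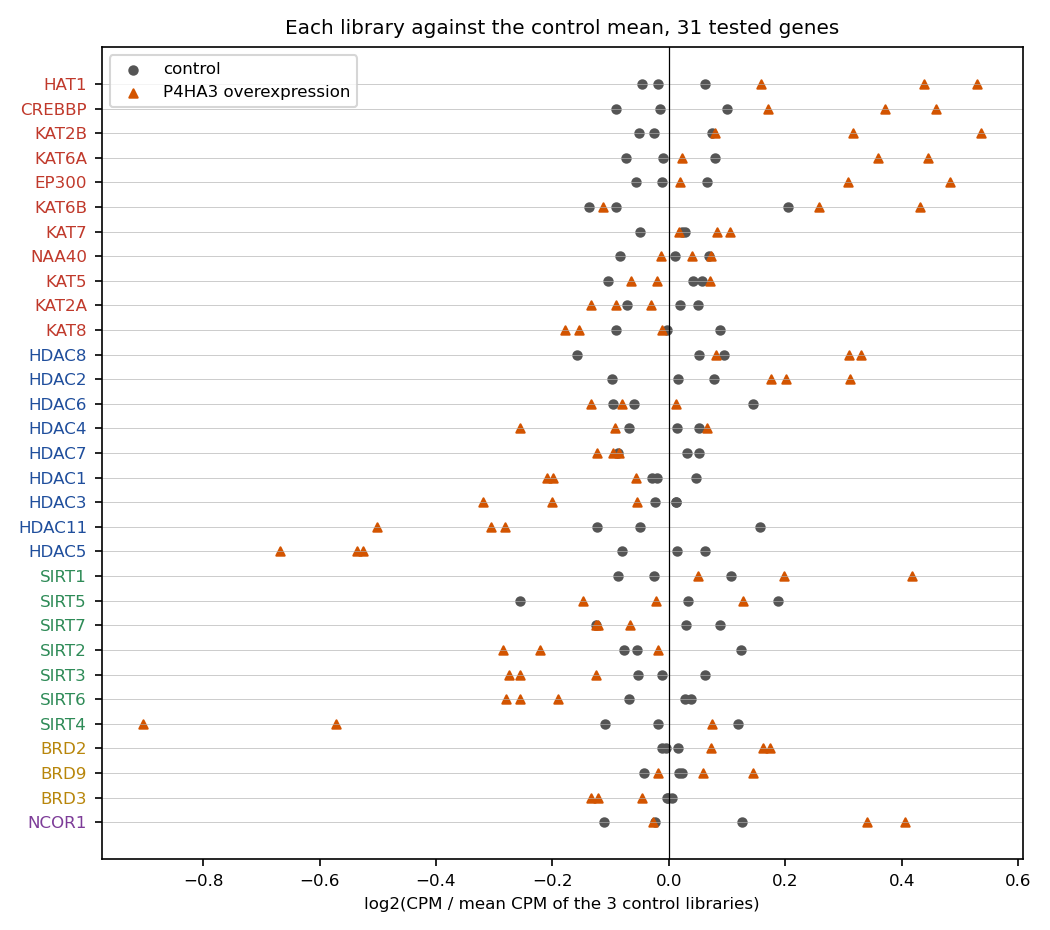
Each library of the 31 tested genes as log2 of its CPM over the mean CPM of the 3 control libraries, with circles for control and triangles for overexpression, and gene names in red for acetyltransferases, blue for HDACs, green for sirtuins, ochre for bromodomain readers and purple for NCOR1. For EP300 and KAT6A, 1 triangle lies among the circles and 2 lie to the right of them, whereas all 3 triangles of HDAC5 lie to the left of the circles.

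Of the 9 HDACs tested, 1 rose and 2 fell, and the median log2 fold change was -0.10. HDAC5, HDAC11 and HDAC2 passed the test, and 6 did not. HDAC5 (ENSG00000108840, GRCh38 chr17:44076746-44123702, minus strand) is a class IIa deacetylase that shuttles between nucleus and cytoplasm and represses MEF2 target genes. It had 41.9, 43.3 and 39.2 CPM in the control replicates and 28.6, 26.1 and 28.8 CPM with overexpression. The lowest control library was well above the highest overexpression library. The log2 fold change was -0.57 (SE 0.07, adjusted p = 0.0014 by edgeR), a change of -32.8%, and HDAC5 ranked 118 by p among the 15130 genes tested. It was the largest change among the called members. Over all genes tested, 20.4% had every overexpression library below every control library, as did 7 of the 31 members (HDAC1, HDAC3, HDAC5, HDAC11, SIRT3, SIRT6 and BRD3). In either direction, 40.1% of all genes did not overlap.

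The other class IIa members moved less. HDAC4 had 27.0, 28.6 and 29.4 CPM in control and 23.7, 26.6 and 29.6 CPM with overexpression (log2 fold change -0.09, adjusted p = 0.50 by edgeR), and HDAC7 changed from a mean of 122 to 114 CPM (log2 fold change -0.10, adjusted p = 0.21 by edgeR). Ratios of counts within a library do not depend on the scaling of libraries. HDAC5 per HDAC7 was 0.335, 0.341 and 0.340 in control and 0.248, 0.232 and 0.251 with overexpression, and HDAC5 per HDAC4 was 1.55, 1.51 and 1.34 in control and 1.20, 0.982 and 0.972 with overexpression. Neither ratio overlapped between the groups (two-sided exact permutation test, p = 0.1 for each, the smallest p that 3 against 3 libraries allow). The gap between the groups in HDAC5 CPM is a larger factor than HDAC4 or HDAC7 varied over the libraries. The separation of both ratios thus follows from that of HDAC5, and they are no further test. These ratios, and those of HDAC2 to HDAC1 and BRD2 to BRD3, were chosen after the values were seen. The exons of HDAC5 overlap those of G6PC3 on the opposite strand over 1826 of 7618 bases, and G6PC3 also fell (log2 fold change -0.37, adjusted p = 0.016 by edgeR). The libraries were strand-specific, but the strand setting of the counting is not given in the sources used here, and it is not known whether reads of the overlap were assigned by strand.

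HDAC11, the only class IV enzyme, removes long fatty acyl groups as well as acetyl groups. It had 35.2, 29.0 and 30.5 CPM in control and 25.9, 22.3 and 25.5 CPM with overexpression. The groups did not overlap, and the log2 fold change was -0.36 (SE 0.09, adjusted p = 0.026 by edgeR).

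The class I enzymes HDAC1 and HDAC2 are paralogs that share the NuRD, SIN3 and CoREST complexes. HDAC2 (ENSG00000196591, GRCh38 chr6:113933028-114011308, minus strand) had 86.9, 80.3 and 90.7 CPM in control and 97.1, 107 and 98.9 CPM with overexpression, a log2 fold change of 0.23 (SE 0.07, adjusted p = 0.033 by edgeR). HDAC1 had 279, 266 and 265 CPM in control and 260, 234 and 236 CPM with overexpression, a log2 fold change of -0.15 (SE 0.06, adjusted p = 0.089 by edgeR). The paralogs thus had opposite signs in this fit, with groups that did not overlap for either. With the trend of each library with GC content and transcript length removed, both were negative, at -0.04 for HDAC2 (adjusted p = 0.76 by edgeR) and -0.12 for HDAC1 (adjusted p = 0.071). The ratio of HDAC2 to HDAC1 counts was 0.311, 0.301 and 0.342 in control and 0.373, 0.456 and 0.420 with overexpression. Its separation follows from the opposite separations of the paralogs in CPM, so the ratio is no further test.

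HDAC3, the catalytic subunit of the NCOR complexes, had 108, 108 and 105 CPM in control and 103, 85.8 and 93.2 CPM with overexpression (log2 fold change -0.19, SE 0.07, adjusted p = 0.078 by edgeR). NCOR1, the corepressor that binds and activates HDAC3, had 106, 113 and 125 CPM in control and 113, 152 and 145 CPM with overexpression (log2 fold change 0.25, adjusted p = 0.11 by edgeR). Neither gene was called. HDAC8 had a log2 fold change of 0.25 (adjusted p = 0.14 by edgeR), and HDAC6, the cytoplasmic tubulin deacetylase, one of -0.06 (adjusted p = 0.57 by edgeR). HDAC9 had between 5 and 14 counts per library and HDAC10 between 0 and 6, so a difference was not detectable at this depth. Of the HDAC10 exon bases, 55.8% are shared with MAPK12 on the same strand, and reads of these bases cannot be assigned to 1 gene by position.

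**Figure D3:**
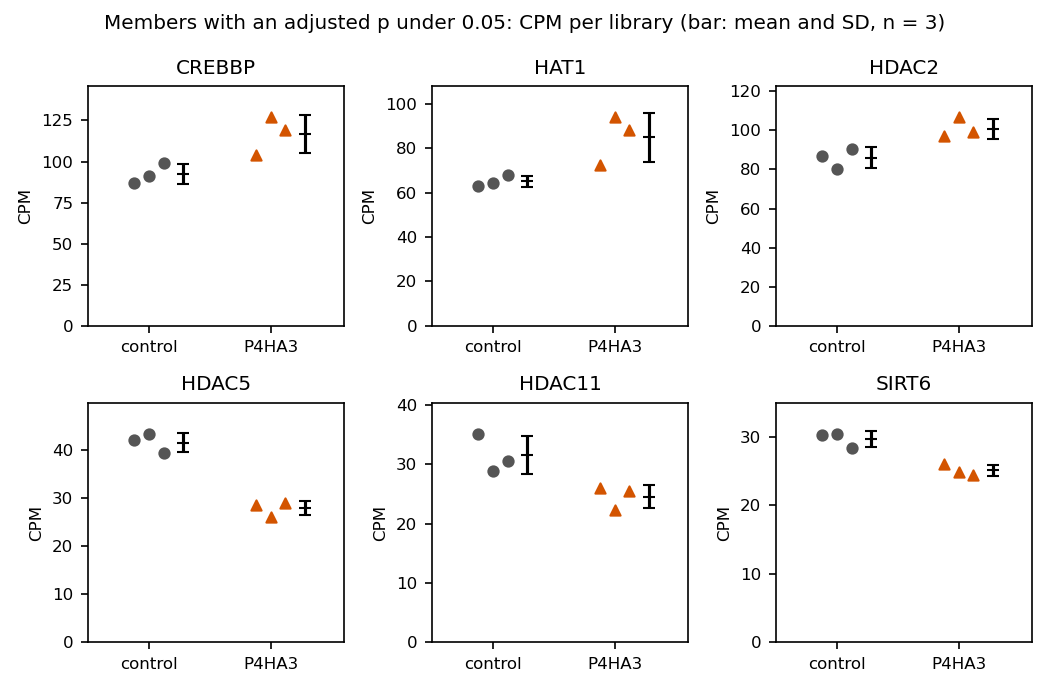
CPM of the 6 members with an adjusted p under 0.05 in each library, with circles for control, triangles for P4HA3 overexpression and a bar for the mean and SD of 3 libraries, on axes that start at 0. The groups do not overlap for any of these 6 called genes, nor for 40.1% of all genes tested. HDAC5 goes from a mean of 41.5 to 27.8 CPM.

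Of the 7 sirtuins, SIRT6 fell and 6 were not called, and 6 of the 7 had a negative log2 fold change (median -0.17). With the GC and length trend removed, the median was 0.03, SIRT2, SIRT6 and SIRT7 were positive, and SIRT6 was not called (adjusted p = 0.65 by edgeR). SIRT6, a nuclear deacetylase of histone H3, had 30.3, 30.5 and 28.3 CPM in control and 26.0, 24.9 and 24.4 CPM with overexpression. The groups did not overlap, with a log2 fold change of -0.24 (SE 0.07, adjusted p = 0.039 by edgeR). SIRT3, the main deacetylase of mitochondria, had 38.6, 41.7 and 39.7 CPM in control and 36.7, 33.04 and 33.5 CPM with overexpression (log2 fold change -0.22, adjusted p = 0.053 by edgeR). SIRT1, which deacetylates p53 as well as histones, was the only sirtuin with a positive value before the trend was removed. It had 46.4, 44.4 and 50.8 CPM in control and 48.9, 63.0 and 54.1 CPM with overexpression (log2 fold change 0.23, adjusted p = 0.10 by edgeR). SIRT2, SIRT7, SIRT4 and SIRT5 had log2 fold changes of -0.17, -0.10, -0.39 and -0.0074. The value of SIRT4 rests on 28 to 60 counts per library and had a wide interval, from -0.86 to 0.07 (2 SE on each side).

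The 3 bromodomain readers were not called. BRD2, a BET protein that binds acetylated histone H4, had 222, 226 and 223 CPM in control and 235, 250 and 252 CPM with overexpression (log2 fold change 0.14, SE 0.05, adjusted p = 0.086 by edgeR). BRD3, the other BET protein of the set, had 101, 101 and 100 CPM in control and 91.7, 92.5 and 97.5 CPM with overexpression (log2 fold change -0.10, adjusted p = 0.19 by edgeR). The control libraries were close together for both, and the groups did not overlap for either. The ratio of BRD2 to BRD3 counts was 2.21, 2.24 and 2.22 in control and 2.57, 2.70 and 2.59 with overexpression. Its groups had to separate, since BRD2 lay above and BRD3 below control in every overexpression library, so the ratio is no further test. BRD9, a subunit of a BAF chromatin-remodelling complex, had 103, 103.7 and 99.1 CPM in control and 113, 101 and 106 CPM with overexpression.

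Fold changes moved with the base composition of the transcripts. Over 15107 genes, the log2 fold change had a Spearman correlation of -0.58 with the GC content of the canonical transcript, and over the 31 members one of -0.66. Genes of 1 fit share their libraries and are not independent, so these values are descriptions. Of all genes with a GC content under 40%, 21.0% rose and 0.888% fell, and of those between 60% and 65%, 1.00% rose and 30.8% fell. HAT1 and HDAC2, which rose, have GC contents of 36.9% and 37.8%, and HDAC5, HDAC11 and SIRT6, which fell, have 61.2%, 60.2% and 64.9%. CREBBP, at 55.8%, rose although only 2.07% of genes between 55% and 60% did. Libraries of 1 group differed in this respect too. The deviation of a library from the mean of its group correlated with GC content over genes at 0.22, 0.38 and -0.52 in control replicates 1, 2 and 3, and at 0.45, -0.48 and 0.08 in the overexpression replicates.

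**Figure D4:**
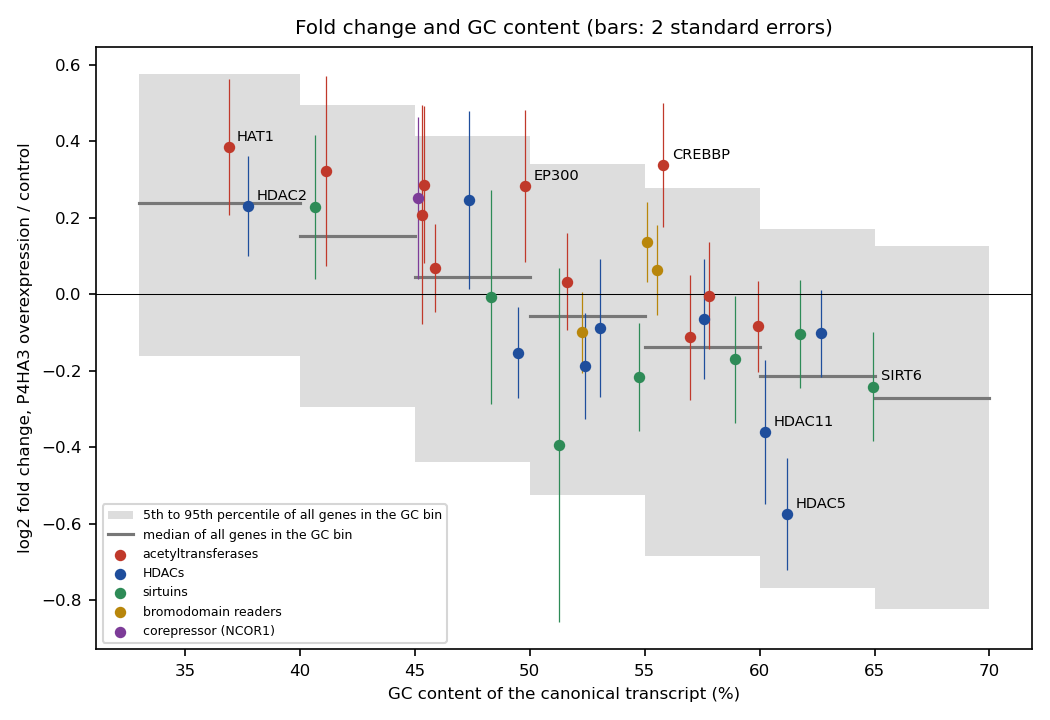
The log2 fold change of the 31 tested members, with bars of 2 standard errors, against the GC content of the canonical transcript in percent, over the median (grey line) and the 5th to 95th percentile (grey band) of all genes in 7 GC bins. The medians go from 0.24 to -0.27 with rising GC content. CREBBP lies above the band of its bin. HDAC5 is the lowest of the called members, and it, HAT1, HDAC2, HDAC11 and SIRT6 lie within the bands of their bins.

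When the trend of each library with GC content and transcript length was taken out by an offset, 6 members rose and 1 fell, beside 10.6% and 7.96% of the 15107 genes. CREBBP, HAT1 and HDAC5 passed in both fits, and no gene was called in opposite directions. The log2 fold change of CREBBP became 0.38 (adjusted p = 0.00082 by edgeR), that of HDAC5 -0.39 (adjusted p = 0.00072 by edgeR) and that of HAT1 0.19 (adjusted p = 0.035 by edgeR). Those of HDAC2, HDAC11 and SIRT6 became -0.04, -0.16 and 0.04 and were no longer called (adjusted p = 0.76, 0.18 and 0.65 by edgeR). EP300 rose in this fit (0.23, adjusted p = 0.024 by edgeR), as did KAT5 (0.18, adjusted p = 0.022), BRD2 (0.23, adjusted p = 0.0028) and BRD9 (0.19, adjusted p = 0.0062). For KAT5, 38.6% of the exon bases overlap RNASEH2C on the opposite strand. The offset takes out any part of a difference that follows GC content or length, whatever its source, and that source was not tested.

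**Figure D5:**
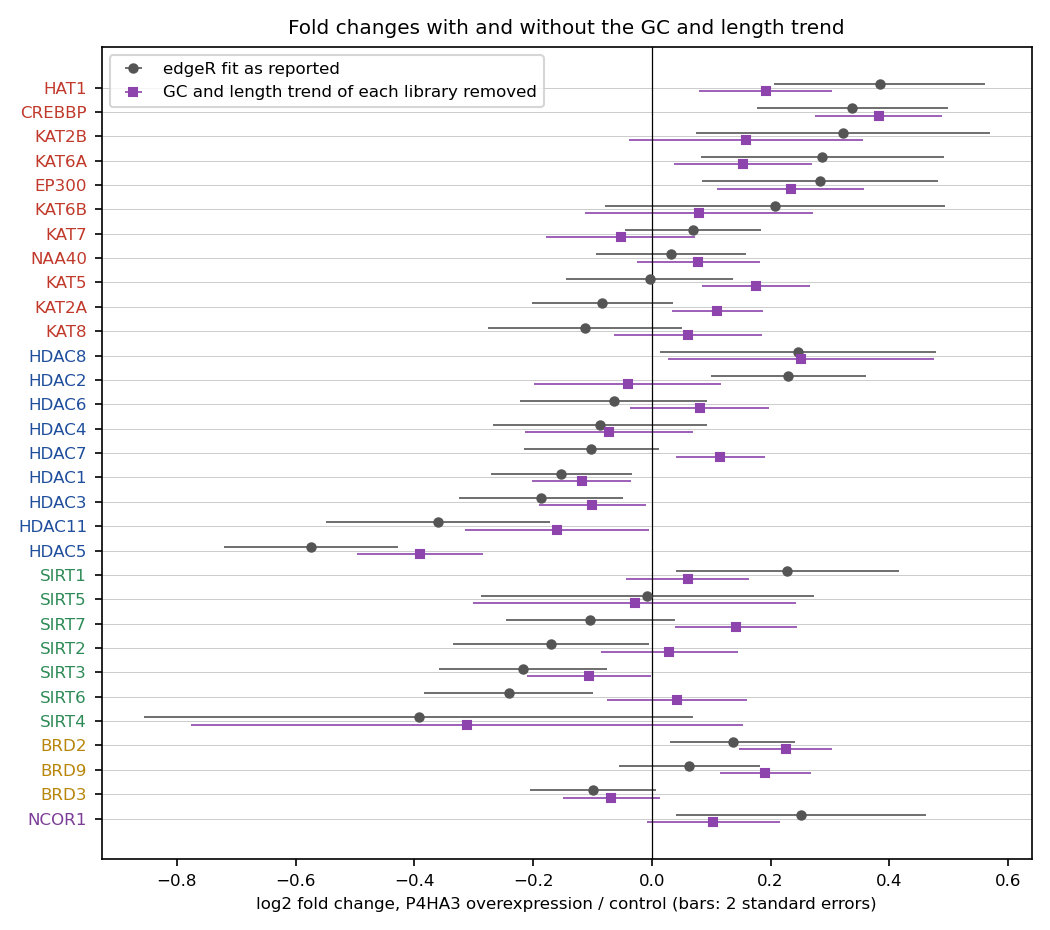
The log2 fold change of the 31 tested members with bars of 2 standard errors, from the edgeR fit as reported (circles) and after removing each library's GC and length trend (squares), with gene names in red for acetyltransferases, blue for HDACs, green for sirtuins, ochre for bromodomain readers and purple for NCOR1. HDAC5 goes from -0.57 to -0.39 and CREBBP from 0.34 to 0.38. HDAC2 moves from 0.23 to -0.04 and SIRT6 from -0.24 to 0.04.

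Single libraries also decided some of these calls. HDAC5 was called with each of the 6 libraries left out in turn, with a log2 fold change between -0.61 and -0.53. CREBBP and HAT1 kept their direction in all 6 cases but their call in 3, with adjusted p-values up to 0.097 and 0.093 by edgeR. HDAC11 was called in 3 of the 6 cases, and HDAC2 and SIRT6 in 2. With the GC and length trend removed, HDAC5, CREBBP, BRD2 and BRD9 were called in 6 of 6 cases, KAT5 in 3, EP300 in 2 and HAT1 in 1. Without overexpression replicate 1, 10 members rose and 7 fell, whereas without control replicate 1, control replicate 2 or overexpression replicate 3, HDAC5 alone was called. Over all genes, the number called was also highest without overexpression replicate 1 and lowest without control replicate 2.

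The partners of these enzymes were described from 5 lists of complex subunits and other acetyl-lysine readers, 108 genes of which 107 were tested. Of these, 12 rose and 4 fell, with a median log2 fold change of 0.10. The 16 called partners are 14.95% of those tested, beside 20.8% of all genes (9.36% higher and 11.4% lower). NuA4, the complex of KAT5, had the largest number, with 6 of 14 partners higher and none lower (median 0.19). The NuA4 partners have a median GC content of 43.4%, and of all genes between 40% and 45%, 17.5% rose. With the GC and length trend removed, MEAF6 and MORF4L2 were no longer called (adjusted p = 0.38 and 0.12 by edgeR). EPC1, EPC2, ING3 and BRD8 stayed called, and DMAP1 was called higher (adjusted p = 0.032 by edgeR). Of the 20 SAGA and ATAC partners, 3 rose and 2 fell, and of the 16 MYST complex partners, 1 rose and 1 fell. Of the 38 HDAC complex partners, 1 rose and 1 fell, and of the 19 other readers tested, 1 rose and none fell (median 0.22). With the GC and length trend removed, 20 partners rose and 1 fell, 9 and 1 of which were also called before. In that fit, 10.6% of all genes rose and 7.96% fell.

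Among the called partners, the largest rises were those of ING3, TAF9B, MBIP and PBRM1. ING3, a NuA4 subunit that reads methylated histone H3, had 5.26, 4.27 and 5.68 CPM in control and 7.69, 8.18 and 8.24 CPM with overexpression, a log2 fold change of 0.66. TAF9B of SAGA, MBIP of ATAC and PBRM1, a reader with several bromodomains, had log2 fold changes of 0.57, 0.54 and 0.50. The groups did not overlap for any of these 4 genes, which were picked among the called ones. Of all genes tested, 19.7% were separated in this direction. All 4 partners were also called with the trend removed. Among the called partners with a mean of at least 1 CPM, the largest falls were those of ING4 (log2 fold change -0.37), TADA3 (-0.28) and ATXN7L3 (-0.18), of which ING4 alone was called with the trend removed (-0.31). RCOR2, the other partner that fell, had a mean under 1 CPM. ING4 is a subunit of the HBO1 complex, and TADA3 and ATXN7L3 belong to SAGA.

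ACLY, the enzyme that makes cytosolic acetyl-CoA, the donor of these reactions, had 453, 444 and 427 CPM in control and 398, 378 and 384 CPM with overexpression. It fell, with a log2 fold change of -0.19 (SE 0.05, adjusted p = 0.034 by edgeR), and with the trend removed it was -0.15 (adjusted p = 0.033). By RT-qPCR, the study found ACLY mRNA unaltered when P4HA3 was changed. The study also reports more ACLY protein and more acetyl-CoA with P4HA3 overexpression. The values here are of RNA alone and do not measure either. SLC7A11, the cystine transporter that the study follows, had a log2 fold change of 1.03 (adjusted p = 0.0096 by edgeR). Its transcript has a GC content of 35.4%. With the trend removed, the log2 fold change of SLC7A11 was 0.69 (adjusted p = 0.0010 by edgeR). It had 20.2, 37.4 and 22.6 CPM with overexpression, beside a control mean of 13.1 CPM, and the groups did not overlap.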

How the data were processed

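Poly-A RNA of 6 SiHa PR samples was sequenced by the authors as strand-specific paired ends. Their supplementary methods name STAR on GRCh38 and HTSeq, whereas the submitters' processing notes name HISAT2 with GRCh38, and the aligner of the deposited table was not settled here. Versions, the strand setting and the treatment of reads with several matches are not given in the sources used here. The authors deposited raw counts per Ensembl gene for 60664 genes, without normalization. All values given here were computed from these counts.

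Libraries were normalized by TMM, genes kept by filterByExpr, and the groups compared by edgeR 4.0.16 (R 4.3.3, quasi-likelihood test, two-sided, Benjamini-Hochberg over 15130 genes, adjusted p under 0.05). Folds are unshrunk, and a standard error is the log2 fold change over the root of F. The common biological coefficient of variation was 7.66%. Replicates differed by a chi-square per degree of freedom of at least 4.79, so no library was counted as a duplicate. Symbols, positions, GC content and lengths came from GENCODE on GRCh38, which matched 60463 identifiers. The GC and length trend was fitted per library with mgcv 1.9.3 and entered as an offset. Alternatives were DESeq2 1.42.0, limma-voom (limma 3.58.1), RLE, library sizes only, no filter, a replicate block, the trend removed with and without the block, each library left out and an adjusted p under 0.01. Leaving out libraries with the trend removed was added after seeing the data. The edgeR fit, with and without the trend removed, was checked on simulated counts. The simulated trend was the same in every overexpression library, unlike in these data. The other alternatives and the permutation tests were not checked in this way.

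The members and lists were chosen with earlier results of these data known. The rule named all 33 members, P4HA3, ACLY, SLC7A11, and the 4 largest rises and up to 4 largest falls called among partners at a mean of at least 1 CPM. RCOR2 and the overlapping genes were named after their values were seen. The paper's other RNA-seq was not analysed here.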

Additional observations from a re-analysis of the deposited data

How the results depend on the processing

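Depth limits HDAC9, HDAC10 and SIRT4, and 3 libraries per group limit the rest. HDAC5 was called lower in 14 of 14 other settings, CREBBP and HAT1 higher in 11, HDAC11 lower in 9, HDAC2 higher in 8 and SIRT6 lower in 6. The replicate numbers were not taken as pairs, since same-numbered libraries deviated together at correlations of 0.25, -0.05 and 0.03. With the number as a replicate block, 6 members, 22 partners and 2138 genes rose. The causes of these changes were not tested, apart from the stricter threshold and the smaller number of samples, which are part of the alternatives themselves.

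At an adjusted p under 0.01, 0 members rose and 1 fell, 3 partners rose and 0 fell, and 221 genes rose and 507 fell. DESeq2 called 5 members higher and 2 partners lower. Without a filter, 8 members, 25 partners and 2384 genes rose. With the GC and length trend removed, 6 members rose and 1 fell, 20 partners rose and 1 fell, and 1603 genes rose and 1202 fell. With the trend removed and the replicate block, 9 members, 24 partners and 2141 genes rose.

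With each library left out, members higher ran from 0 to 10 and lower from 1 to 7, partners higher from 2 to 34 and lower from 0 to 8, and genes higher from 163 to 2814 and lower from 371 to 2716. The lowest count of genes was found without control replicate 2 and the highest without overexpression replicate 1. With the trend removed as well, members higher ran from 3 to 11 and lower from 1 to 3, partners higher from 12 to 27 and lower from 0 to 6, and genes higher from 818 to 1955 and lower from 621 to 1695.

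Some log2 fold changes changed sign. SIRT5 was 0.00094 with limma-voom, 0.0078 with library sizes only and 0.0034 without a filter, and KAT5 was 0.013 with library sizes only and 0.0072 without a filter. With the trend removed, KAT2A was 0.11, KAT5 0.18, KAT7 -0.053, KAT8 0.061, HDAC2 -0.041, HDAC6 0.080, HDAC7 0.12, SIRT2 0.030, SIRT6 0.043 and SIRT7 0.14. With the trend removed and the block, KAT2A was 0.11, KAT5 0.18, KAT7 -0.051, KAT8 0.062, HDAC2 -0.041, HDAC6 0.082, HDAC7 0.12, SIRT2 0.030, SIRT6 0.042 and SIRT7 0.14. With libraries left out, KAT5 ran from -0.051 to 0.026, NAA40 from -0.0063 to 0.069, HDAC6 from -0.11 to 0.013 and SIRT5 from -0.12 to 0.093. With libraries left out and the trend removed, KAT7 ran from -0.11 to 0.0052, HDAC2 from -0.13 to 0.043, SIRT2 from -0.0087 to 0.088 and SIRT5 from -0.14 to 0.081.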
